A study of Mus musculus with 6 samples.

Results

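The genes described here are 10 genes of the hypoxia-inducible factor (HIF) pathway: the factor subunits Hif1a, Epas1 and Arnt, the degradation machinery Vhl, Egln1 and Egln3, and the HIF targets Vegfa, Adm, Ankrd37 and Ndrg1. They were chosen by gene symbol from a count table of 24421 genes, and all 10 were found there. Of these, 9 passed the filter on low counts, as did 13084 genes in all, and Epas1 did not. RNA was sequenced from 4T1-tetL1(GLucAI) cells, a derivative of the 4T1 breast carcinoma line of BALB/cfC3H mice, to ask what expression of the retrotransposon LINE-1 (L1) does to a tumor cell. There were 3 untreated libraries, whose treatment is also given as vehicle, and 3 libraries from cells kept for 48 h in 400 ng/mL doxycycline.

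Both groups carried the same cassette: a recoded mouse L1 with a Gaussia luciferase retrotransposition reporter, and firefly luciferase, behind a bidirectional promoter that doxycycline switches on through an activator driven by the EF1α promoter. The cells were a pool selected with blasticidin for the integrated cassette, not a single clone. Doxycycline-treated cells without the cassette were not analysed here, so the effect of the drug and that of L1 cannot be told apart. Transcripts of the cassette were not analysed here either, so every direction below rests on the sample labels. The study calls the 3 libraries of a group biological triplicates, without saying how the cultures were separated, and p-values measure the spread between them. Library totals ran from 33537520 to 43631312 counts in the untreated group and from 31653464 to 41264244 in the doxycycline group, and 3 counts in a library amounted to 0.0683 to 0.0944 CPM, a detection floor that reflects only counting error. CPM, the unit used throughout, is a count scaled to the size of its library. The 7 epithelial markers, Epcam and keratins among them, summed to 1480 to 1530 CPM in untreated and 1450 to 1590 CPM in doxycycline libraries. Of these only Krt19 was called, from 63.5 ± 2.15 to 51.4 ± 4.22 CPM (SD, n = 3; log2 fold change -0.31, adjusted p = 0.00782 in edgeR). Epcam (0.13, edgeR adjusted p = 0.336) and Cldn4 (0.25, edgeR adjusted p = 0.0858) were higher in every doxycycline library but did not pass the test. The summed level of 6 leukocyte markers, most of it Cd68, was 9.79 to 12 and 9.27 to 11.6 CPM, and that of 5 endothelial markers 0.433 to 0.809 and 0.318 to 0.81 CPM, with Emcn at 0 throughout. The 5 fibroblast markers summed to 35.5 to 38.1 CPM in untreated and 27.5 to 28.8 CPM in doxycycline libraries. Nearly all of this sum was a single gene, the growth factor receptor Pdgfra, which fell from 36.7 ± 1.37 to 27.8 ± 0.669 CPM (SD, n = 3; log2 fold change -0.40, adjusted p = 0.000952 in edgeR). Col1a1 of that list averaged 0.403 CPM in untreated libraries and Dcn 0.04 CPM. Lum and Thy1 had no count in any library, and the part of these markers in the results was not tested.

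HIF is a transcription factor made of an oxygen-sensitive alpha subunit (from Hif1a or Epas1) and a constant partner, Arnt. When oxygen is present, the prolyl hydroxylases encoded by Egln1 and Egln3 modify the alpha subunit, the Vhl ubiquitin ligase binds the modified protein, and it is destroyed. When oxygen is scarce the alpha subunit accumulates, pairs with Arnt and binds short DNA elements near its targets, which include the hydroxylase genes themselves, so that the pathway restrains its own activity. The alpha subunit is controlled mainly as a protein, which RNA counts do not measure.

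Because the targets share a short binding core, the letters ACGTG or GCGTG, promoter windows were searched for it on both strands. A window ran from 250 bases before to 50 bases after a RefSeq start site (GRCm38.p6), and 8 of the 10 genes, all but Epas1 and Ndrg1, were matched to one. The core was found in 7 of these 8 genes (87.5%), against 67% of the 9798 tested genes with a window and 66.2% of the 204 such genes called lower. Across all 32851 windows the share was 43.8%. The windows of Egln3, Egln1, Adm and Ankrd37 are printed, as these are the feedback hydroxylases and, of the targets, the one with the largest change and the one with the most matches. Each reads 5′ to 3′ along the gene's strand, and capitals mark the core, or its reverse complement CACGT or CACGC.

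Egln3 (chr12:54203825-54204124, minus strand): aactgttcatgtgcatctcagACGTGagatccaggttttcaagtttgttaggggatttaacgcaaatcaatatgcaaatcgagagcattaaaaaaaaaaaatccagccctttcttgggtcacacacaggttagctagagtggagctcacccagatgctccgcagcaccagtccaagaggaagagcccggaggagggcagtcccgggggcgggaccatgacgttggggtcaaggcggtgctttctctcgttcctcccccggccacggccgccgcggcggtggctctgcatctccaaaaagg

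Egln1 (chr8:124949205-124949504, minus strand): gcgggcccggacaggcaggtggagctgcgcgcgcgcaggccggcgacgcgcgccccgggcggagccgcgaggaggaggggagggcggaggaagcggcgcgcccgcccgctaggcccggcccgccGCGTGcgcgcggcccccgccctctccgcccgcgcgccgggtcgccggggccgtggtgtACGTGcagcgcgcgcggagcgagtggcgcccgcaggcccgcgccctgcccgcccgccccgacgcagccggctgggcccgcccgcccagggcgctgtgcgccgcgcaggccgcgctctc

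Adm (chr7:110627407-110627706, plus strand): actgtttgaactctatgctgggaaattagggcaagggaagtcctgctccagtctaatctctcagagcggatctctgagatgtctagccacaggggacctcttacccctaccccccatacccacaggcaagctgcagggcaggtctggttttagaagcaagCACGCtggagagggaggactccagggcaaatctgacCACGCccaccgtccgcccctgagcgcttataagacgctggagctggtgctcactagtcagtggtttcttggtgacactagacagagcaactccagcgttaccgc

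Ankrd37 (chr8:45999801-46000100, minus strand): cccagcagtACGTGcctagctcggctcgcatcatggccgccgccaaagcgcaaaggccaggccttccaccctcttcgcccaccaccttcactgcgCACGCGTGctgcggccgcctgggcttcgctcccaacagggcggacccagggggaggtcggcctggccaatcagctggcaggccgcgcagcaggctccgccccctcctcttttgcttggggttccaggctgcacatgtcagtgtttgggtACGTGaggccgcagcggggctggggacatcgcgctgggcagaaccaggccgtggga

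Egln3 held 1 core, which began 229 bases before the start site. Egln1 held cores 126 and 68 bases before it. Both cores of Adm, 90 and 54 bases before the start, lay on the opposite strand. Ankrd37 held 4 matches, of which those at 155 and 152 bases overlap as a single CACGCGTG, and the others began 241 and 6 bases before the start. Of the remaining windows, those of Hif1a, Arnt and 1 of the 2 windows of Vegfa held a core, and those of Vhl and the other Vegfa start did not. The Vegfa window with a core (chr17:46025114-46025413) lies inside the gene, as does the Hif1a window (chr12:73907617-73907916). For both of these and for the Egln3 window, bases just after the start site were not found in a GENCODE transcript of the gene. The window at the outer end of Vegfa (chr17:46032328-46032627) held none. Any window of a gene was counted, so Vegfa is among the 7 genes through the inner window alone. A match is a description of the letters only, and binding was not measured.

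Doxycycline libraries had less RNA of the feedback hydroxylases and of some targets. Of the 9 tested genes, 4 fell (Egln1, Egln3, Adm and Ndrg1) and 0 rose, at a threshold of 0.05 on p-values from the quasi-likelihood test of edgeR, adjusted over all tested genes. Across all 13084 tested genes 2.16% were called lower and 0.925% higher. In the same 4 genes every doxycycline library lay below every untreated library, a separation found for 11.1% of tested genes. Before adjustment 7 of the 9 had a p under 0.05, the others being Vhl, Vegfa and Ankrd37, as did 2119 of all 13084 tested genes. The median log2 fold change of the 9 genes was -0.26, and that of all tested genes 0.002. In bulk RNA, fewer cells expressing a gene and less RNA per cell cannot be told apart.

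**Figure D1:**
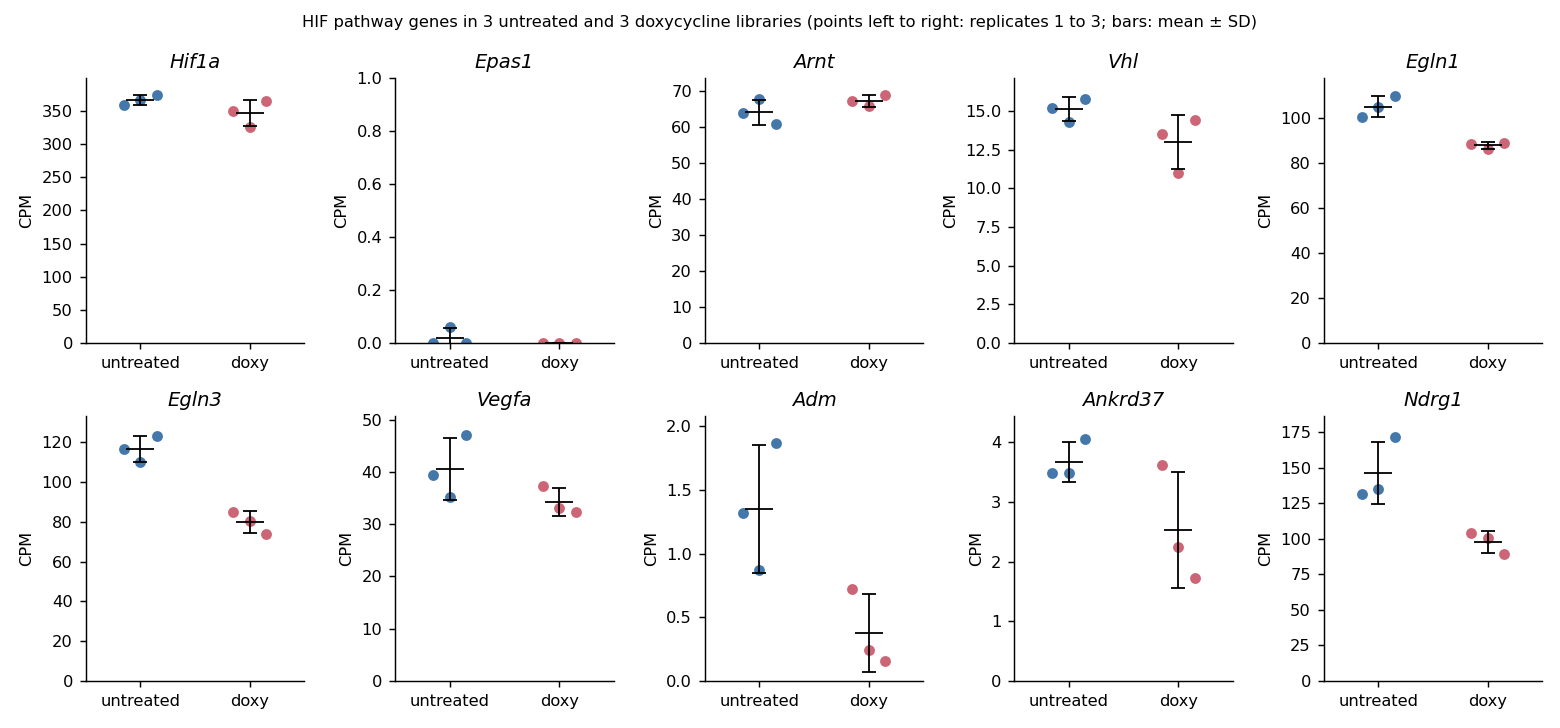
CPM of each of the 10 genes (vertical axes from 0, scaled separately) in untreated and doxycycline libraries, with points for replicates 1 to 3 from left to right and bars for the mean ± SD. The groups do not overlap for Egln1, Egln3, Adm and Ndrg1, and Epas1 lies at or near 0 in all 6 libraries.

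The level of each gene in untreated cells was set per kilobase of exon, so that genes of different length could be compared. Hif1a had the highest mean, 67.3 CPM per kb, with libraries between 65.8 and 68.7. Ndrg1 (50.6) and Egln3 (43.8) followed, and their ranges over libraries overlapped. Egln1 came next at 29.2 CPM per kb. Arnt (13.3) and Vegfa (11.5) overlapped too, and below them stood Vhl at 5.4, Ankrd37 at 3.96 and Adm at 0.973. Epas1, at 0.00362 CPM per kb, was the lowest.

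Among the subunits, Hif1a (chr12:73901324-73947554; GRCm38.p6, as for the genes that follow) had 358.6, 366.3 and 374.2 CPM in untreated and 349.6, 326.4 and 365.3 CPM in doxycycline libraries. The groups overlapped, since doxycycline replicate 3 lay inside the untreated range. The log2 fold change was -0.08 (SE 0.0472, adjusted p = 0.437 in edgeR), with a 95% interval from -0.18 to 0.02.

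Arnt (chr3:95434367-95497240), the constant partner, had 63.8, 67.7 and 60.9 CPM in untreated and 67.3, 65.7 and 68.9 CPM in doxycycline libraries. It was the only tested gene of the 10 with a fold change above 0, and its groups overlapped. The log2 fold change was 0.07 (SE 0.0567, adjusted p = 0.586 in edgeR, 95% interval -0.05 to 0.19).

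Epas1 (chr17:86753864-86833410), which encodes the alternative alpha subunit, had 2 counts in untreated replicate 2 and 0 counts in the other 5 libraries. It was not tested, and at this depth no level above the floor of 3 counts was seen in any library. Hif3a, a further alpha subunit gene, had 0 counts in all 6 libraries. Of the alpha subunit genes, Hif1a was thus the only one with RNA above the floor.

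Vhl (chr6:113623994-113631634), the substrate-binding part of the ubiquitin ligase, had 15.2, 14.3 and 15.8 CPM in untreated and 13.5, 11.0 and 14.4 CPM in doxycycline libraries. Doxycycline replicate 2 was the lowest, and replicate 3 just exceeded untreated replicate 2. The log2 fold change was -0.22 (SE 0.104, 95% interval -0.44 to -0.01), and Vhl did not pass the test (adjusted p = 0.291 in edgeR).

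The hydroxylase gene Egln3 (chr12:54178981-54203874), whose window with a single core is printed above, had the smallest p of the 9 tested genes. It had 116.5, 110.0 and 122.9 CPM in untreated and 85.0, 80.4 and 73.9 CPM in doxycycline libraries. The lowest untreated library was well above the highest doxycycline library. The mean went from 116.5 ± 6.48 to 79.8 ± 5.6 CPM (SD, n = 3), so that it fell by 31.6% (log2 fold change -0.55, SE 0.0576, adjusted p = 4.08e-06 in edgeR). By p it ranked 17 among all tested genes.

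Egln1 (chr8:124908587-124949254), which encodes the main oxygen-sensing hydroxylase in most cells, had 100.2, 104.6 and 109.6 CPM in untreated and 88.3, 86.0 and 88.9 CPM in doxycycline libraries. The doxycycline libraries lay within 3 CPM of each other and all were below the untreated ones. The mean went from 104.8 ± 4.69 to 87.8 ± 1.55 CPM (SD, n = 3), with a log2 fold change of -0.26 (SE 0.0507, adjusted p = 0.00541 in edgeR).

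A ratio of the hydroxylase counts within a library does not depend on the scaling between libraries. The ratio of Egln3 to Egln1 counts was 1.16, 1.05 and 1.12 in untreated and 0.962, 0.935 and 0.831 in doxycycline libraries. It stood above 1 in each untreated and below 1 in each doxycycline library. The log2 ratio differed by -0.29 between groups, with a two-sided exact permutation p = 0.1, which is the smallest p that 3 against 3 libraries allow. The third paralog, Egln2, was looked at after its values were seen. Its level was 15.2 ± 1.73 CPM in untreated and 14.8 ± 1.65 CPM in doxycycline libraries, with a log2 fold change of -0.04 (95% interval -0.26 to 0.18, edgeR adjusted p = 0.895).

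Of the secreted targets, Vegfa (chr17:46016993-46032377), the main growth factor for blood vessels, had 39.5, 35.2 and 47.0 CPM in untreated and 37.4, 33.1 and 32.3 CPM in doxycycline libraries. Untreated replicate 3 stood well above the others, and doxycycline replicate 1 exceeded untreated replicate 2. Vegfa did not pass the test: the log2 fold change was -0.25 (SE 0.0877, 95% interval -0.43 to -0.06, adjusted p = 0.151 in edgeR). Without untreated replicate 3 it was -0.13.

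Adm (chr7:110627657-110629820) encodes adrenomedullin, a peptide that widens blood vessels. It had 58, 29 and 70 counts in untreated and 23, 10 and 6 counts in doxycycline libraries, or 1.32, 0.869 and 1.87 against 0.723, 0.245 and 0.157 CPM. All doxycycline values were below the untreated ones, but within each group the values were far apart, with a 2.15-fold range in untreated and a 4.62-fold range in doxycycline libraries. The log2 fold change was -1.91 (SE 0.443, 95% interval -2.83 to -0.99, edgeR adjusted p = 0.0171), the largest of the 9 in size and the one with the largest SE. The call was lost without untreated replicate 1 (adjusted p = 0.0686), without untreated replicate 3 (0.167) or without doxycycline replicate 3 (0.133). The RNA Gm28863 overlaps Adm on the opposite strand. The library kit marks strand, but the strand setting of the counting was not given in the sources used here.

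**Figure D2:**
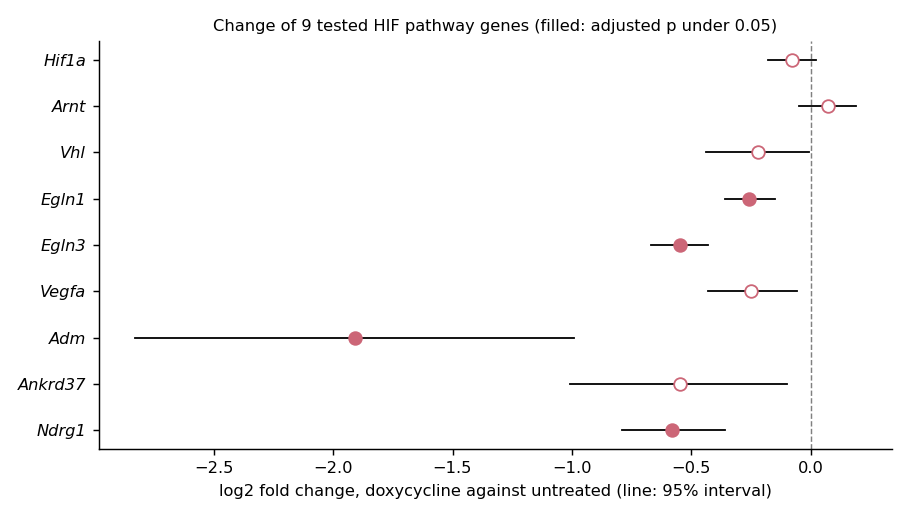
Log2 fold change (horizontal axis, doxycycline against untreated) of the 9 tested genes with its 95% interval as a line, filled where the adjusted p was under 0.05. The intervals of the called genes Egln1, Egln3, Adm and Ndrg1 lie below 0, as do those of Vhl, Vegfa and Ankrd37, which were not called. Adm lies lowest at -1.91 with the widest interval, and the intervals of Hif1a and Arnt span 0.

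The intracellular target Ndrg1 (chr15:66929318-66969641), a stress-responsive gene named for its regulation by the Myc family, had 131.7, 135.2 and 171.4 CPM in untreated and 104.2, 100.5 and 89.4 CPM in doxycycline libraries. Untreated replicate 3 was 1.30 times the lowest untreated library, and the groups did not overlap. Ndrg1 fell from 146.1 ± 22 to 98.0 ± 7.72 CPM (SD, n = 3; log2 fold change -0.58, SE 0.098, adjusted p = 0.0115 in edgeR). The call was lost without doxycycline replicate 1 (adjusted p = 0.083) and without doxycycline replicate 2 (0.235), and with a correction for GC content and length (0.111). Gm17035 and Gm2895 overlap Ndrg1 on the opposite strand.

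Ankrd37 (chr8:45996908-46000414), an ankyrin repeat gene that serves as a marker of HIF activity, had 153, 116 and 152 counts in untreated and 115, 92 and 66 counts in doxycycline libraries. As CPM these were 3.48, 3.48 and 4.06 against 3.62, 2.25 and 1.72. Doxycycline replicate 1 lay inside the untreated range and the other 2 lay below it. The gene did not pass the test with all libraries (log2 fold change -0.55, SE 0.219, adjusted p = 0.203 in edgeR), and passed it without doxycycline replicate 1 (-0.88, adjusted p = 0.0144). Lrp2bp and Ufsp2 overlap it on the opposite strand.

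The libraries of a group were not alike for these genes. Untreated replicate 3 was the highest of all 6 libraries for 8 of the 9 tested genes (88.9%), against 15.8% of all tested genes. Doxycycline replicate 3 was the lowest for 5 of the 9 (55.6%), against 15.5% of all tested genes. A gene that is lower with doxycycline tends to have its highest library among the untreated ones and its lowest among the others. As 8 of the 9 had a fold change below 0, against 49.2% of all tested genes, the shares over all genes are not a matched comparison. In the glycolytic list described below, with 16 of 18 genes below 0, the shares were 38.9% and 55.6%. Relative to the untreated mean, doxycycline replicates 1 to 3 stood at -0.45, -0.53 and -0.66 for Egln3 on the log2 scale. Ndrg1 stood at -0.49, -0.54 and -0.71, and Adm at -0.90, -2.47 and -3.11. Egln1 was even over the same libraries, at -0.25, -0.28 and -0.24. The labels give no batch or date, and what sets untreated replicate 3 apart was not tested.

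**Figure D3:**
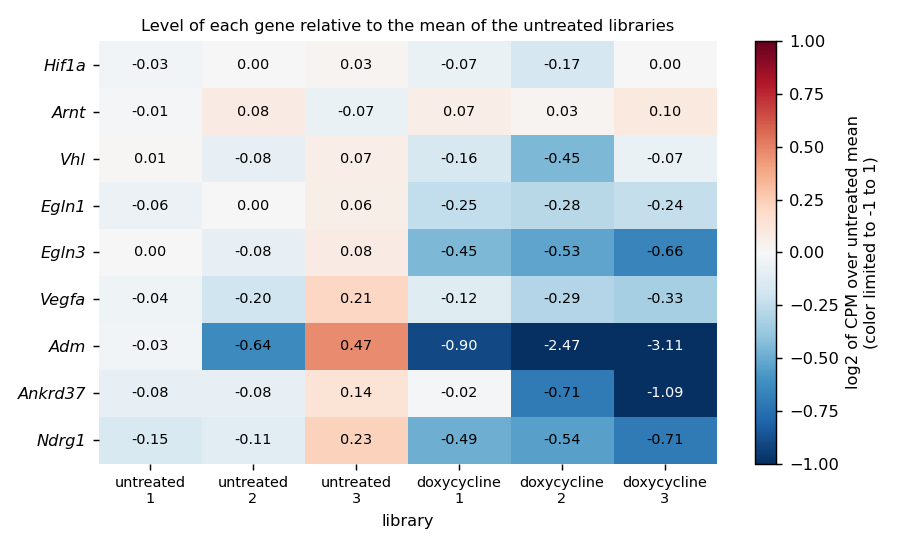
Log2 of CPM over the untreated mean for 9 genes (vertical) in each of the 6 libraries (horizontal), with the value printed in each cell and the color limited to -1 to 1. The untreated replicate 3 column is at or above 0 for all genes but Arnt, and the doxycycline replicate 3 column holds the lowest values for Egln3, Vegfa, Adm, Ankrd37 and Ndrg1.

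Leaving out untreated replicate 3 took the number of genes called lower from 4 to 2, which were Egln3 and Ndrg1. Egln1 then had a log2 fold change of -0.22 and an edgeR adjusted p of 0.0843. Egln3 was called in each of the 6 fits that left out a library, with log2 fold changes from -0.59 to -0.49. Hif1a, Arnt and Vhl were called in none of them. No gene changed its direction in these fits.

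**Figure D4:**
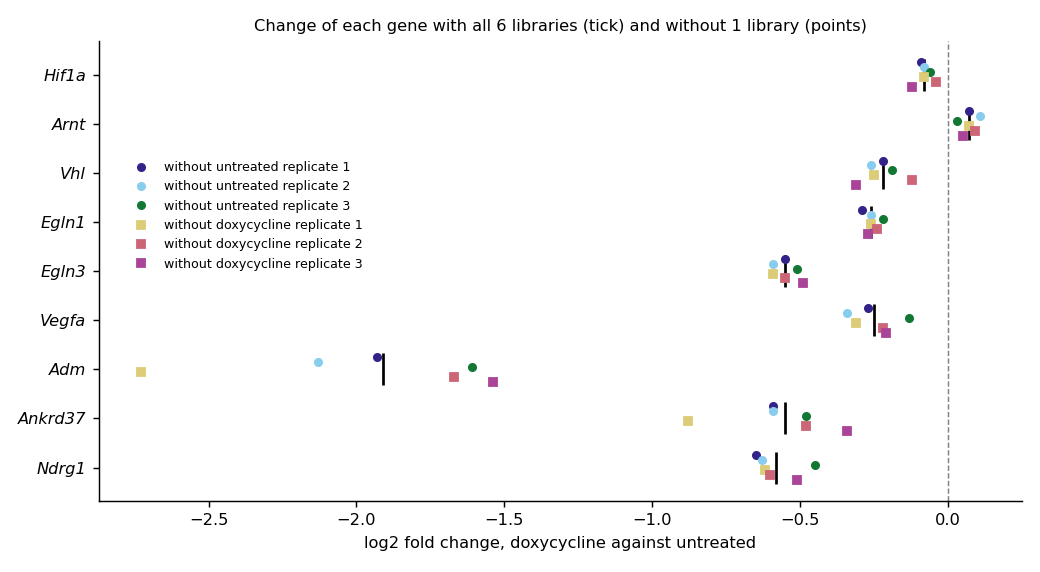
Log2 fold change (horizontal axis, doxycycline against untreated) of the 9 tested genes with all 6 libraries (tick) and without each library in turn (circles for untreated, squares for doxycycline libraries). The points of Egln3 run from -0.59 to -0.49 and those of Adm from -2.73 to -1.54.

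Other genes that control HIF were counted from a list of 21, of which 18 were tested. The list holds cofactors, ligase subunits and further hydroxylases. Here 1 gene fell (5.56%, against 2.16% of all tested genes) and 0 rose (0.925% of all tested genes), a share resting on a single gene, with a median log2 fold change of -0.01. The gene was Cited2, a HIF-induced protein that competes with HIF for its coactivators. Cited2 had 132.3, 132.8 and 137.5 CPM in untreated and 120.4, 107.3 and 120.7 CPM in doxycycline libraries (log2 fold change -0.21, SE 0.0518, adjusted p = 0.026 in edgeR). Its groups did not overlap, but the call was lost when any 1 untreated library was left out (largest adjusted p 0.194). Like Egln1 and Egln3, Cited2 is itself a known HIF target. Hif1an, the asparagine hydroxylase of the alpha subunit, had a log2 fold change of 0.03 (edgeR adjusted p = 0.833); it was named after its value was seen.

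A list of 35 further HIF targets outside glycolysis, of which 30 were tested, held 11 that fell (36.7%, against 2.16% of all tested genes) and 0 that rose. This list, like the other gene lists, was chosen with earlier results of these data known, so its share is a description and not a test. Its median log2 fold change was -0.24, and 25 of the 30 were below 0, against 49.2% of all tested genes. The call count was 7 without untreated replicate 3, which was the highest library for 17 of the 30. Ddit4, an inhibitor of mTOR signalling, had 26.7, 23.3 and 27.1 CPM in untreated and 18.7, 17.5 and 13.6 CPM in doxycycline libraries (log2 fold change -0.63, SE 0.101, adjusted p = 0.000636 in edgeR). Stc1, a secreted glycoprotein hormone, had 45.5, 44.3 and 48.9 against 34.5, 29.8 and 29.0 CPM (-0.58, SE 0.0721, adjusted p = 3.96e-05 in edgeR). In both genes the groups were clear of each other, and both were called whichever library was left out.

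Fam162a, a mitochondrial protein linked to cell death in hypoxia, had 54.3, 50.4 and 60.8 CPM in untreated and 43.2, 40.0 and 39.9 CPM in doxycycline libraries (log2 fold change -0.43, SE 0.0687, adjusted p = 0.000682 in edgeR). Ero1l, an oxidase that helps to form disulfide bonds in the endoplasmic reticulum, had 139.9, 150.8 and 187.6 against 124.1, 112.7 and 122.1 CPM. It fell only narrowly (log2 fold change -0.41, SE 0.0953, adjusted p = 0.0495 in edgeR), and its call was lost when any 1 doxycycline library was left out (largest adjusted p 0.384) as well as with each of 3 other scalings, with DESeq2, with limma voom and with the GC content and length correction. Cxcr4, a chemokine receptor often induced by HIF, had 0 counts in all libraries. The core was found in the windows of 21 of the 23 genes of this list that had one (91.3%), against 67% of tested genes.

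**Figure D5:**
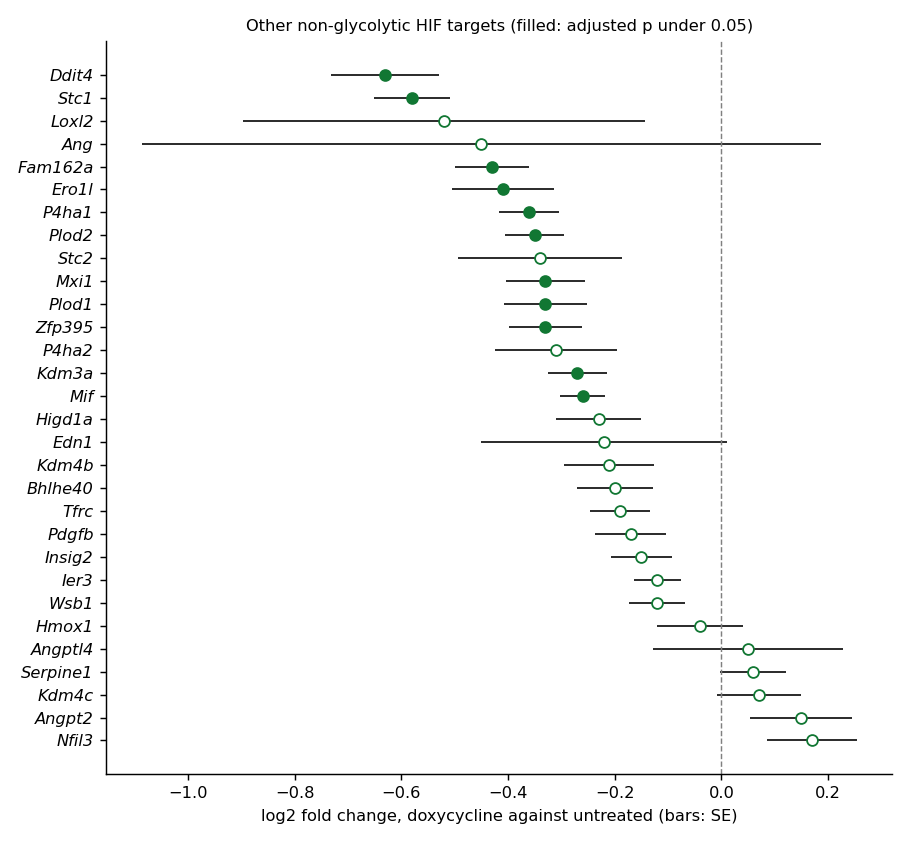
Log2 fold change (horizontal axis, doxycycline against untreated) with its SE for the 30 tested HIF targets outside glycolysis, ordered by size and filled where the adjusted p was under 0.05. Of the 30, 25 lie below 0, and all 11 filled points are among them.

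The glycolytic HIF targets gave a count for comparison: 10 of 18 fell (55.6%, against 2.16% of all tested genes) and 0 rose, with a median log2 fold change of -0.19. Against 49.2% of all tested genes, fold changes were below 0 for 16 of the 18. The others had few counts: Eno1 (0.939 CPM in untreated libraries, log2 fold change 0.28, edgeR adjusted p = 0.699) and Slc16a3 (0.554 CPM, 0.60, edgeR adjusted p = 0.408). For Slc16a3 every doxycycline library lay above every untreated one. In untreated libraries Eno1 stood far below other enzymes of the list such as Aldoa (762.3 CPM) and Ldha (1273.2 CPM). How reads with several positions were treated was not given, so the count of Eno1 is uncertain and its cause was not tested. Pdk1, which keeps pyruvate out of the mitochondrion, had the largest fall (log2 fold change -0.41, SE 0.0619, adjusted p = 0.000342 in edgeR). The glucose transporter Slc2a1 had a log2 fold change of -0.33 (edgeR adjusted p = 0.000984), and both were called whichever library was left out. Pfkp (-0.31, adjusted p = 0.00842) and Pfkfb3 (-0.26, adjusted p = 0.0422) followed. Pfkp was called in 4 of the 6 fits that left out a library, and Pfkfb3 in 1 of 6 and not with the replicate block. The number of glycolytic genes called lower was 4 without untreated replicate 3, 5 without untreated replicate 1 and 4 without doxycycline replicate 3.

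The ligands, receptors and paralogs of Vegfa, Adm and Ndrg1 made a list of 17 genes, of which 12 were tested, 3 fell (25.0%, against 2.16% of all tested genes) and 0 rose, with a median log2 fold change of -0.16. Pgf, placental growth factor and a relative of Vegfa, had 4.55, 5.70 and 5.79 CPM in untreated and 3.05, 3.72 and 3.03 CPM in doxycycline libraries (log2 fold change -0.70, SE 0.16, adjusted p = 0.0149 in edgeR). Flt1, a receptor that binds both Vegfa and Pgf, had 41.1, 41.0 and 39.9 against 33.9, 34.7 and 31.1 CPM (-0.29, SE 0.0651, adjusted p = 0.0132 in edgeR). Ndrg4, a paralog of Ndrg1, had 6.19, 9.41 and 8.55 against 5.28, 5.58 and 5.59 CPM (-0.54, SE 0.147, adjusted p = 0.044 in edgeR). In all 3 the groups did not overlap, as in 11.1% of all tested genes. The call of Ndrg4 was also lost without doxycycline replicate 1 and with limma voom, and that of Flt1 without untreated replicate 1. No gene of the list was called without untreated replicate 2, untreated replicate 3 or doxycycline replicate 3.

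Other members of these families were looked at after their values were seen. Vegfb and Vegfc, growth factors of the Vegfa family, had log2 fold changes of -0.01 (95% interval -0.14 to 0.11) and -0.08 (95% interval -0.27 to 0.11). Kdr, the main signalling receptor for Vegfa on endothelial cells, had at most 0.0629 CPM in any library, below the floor. Flt4, another receptor of the family, and Adm2, a peptide related to Adm, had 0 counts in all libraries. Of the Ndrg1 paralogs, Ndrg2 had few counts, between 14 and 50 in a library. Its log2 fold change was -1.26 (SE 0.365), and it did not pass the test (edgeR adjusted p = 0.0667). Ndrg3 had a log2 fold change of -0.07.

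The genes whose log2 CPM over the 6 libraries was most like that of Vegfa, of 9878 genes with a mean of at least 5 CPM, were Zfp952 (Pearson r 0.994), Epb4.1l4b (0.987), Ak4 (0.981), Ptpn18 (0.98) and Plekha2 (0.979). For Hif1a they were Tbc1d23 (0.993), Nceh1 (0.989), Paip1 (0.989), Celf2 (0.988) and Cnep1r1 (0.986). None of these 10 genes passed the test between groups. These are descriptions over 6 libraries that share the group difference and their depth, picked as the highest of the 9878 genes.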

How the data were processed

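Total RNA of 6 libraries was depleted of ribosomal RNA and sequenced with a strand-marking kit. The authors aligned reads with STAR to mm10 (GRCm38), counted them per gene with featureCounts, and deposited raw counts per gene, with replicates kept apart. The submitters' processing notes also name Subread 1.6.2 and bcl2fastq 2.20. How reads with several positions were treated was not given in the sources used here, so genes with near-identical copies or overlapping neighbours are uncertain.

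All 6 columns were matched to a sample and 0 were left over. Of the 24421 genes, 6760 had no count in any library. Replicate pairs differed by more than sampling noise (chi-square per degree of freedom 6.14 to 22.06), so each library was counted once. Counts were tested with edgeR 4.0.16 in R 4.3.3 (quasi-likelihood, robust, TMM scaling, filterByExpr, group as the only term), with Benjamini-Hochberg adjustment and a threshold of 0.05. The common biological coefficient of variation was 6.04%. The study used DESeq2 with no stated covariate. CPM used TMM-scaled totals. The standard error (SE) was the absolute log2 fold change over the square root of F, and intervals used the t quantile at edgeR's degrees of freedom. Exon lengths came from GENCODE M21, and gene coordinates, counted from 1, and promoter sequences from RefSeq (GRCm38.p6).

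The 10 genes and the gene lists were chosen with earlier results of these data known. Beside the 10 genes, up to 4 called genes with the largest absolute log2 fold change were named per list, with list genes at 0 counts throughout where their absence is described, and the 5 genes most like Vegfa and Hif1a by Pearson r. A ratio of Epas1 to Hif1a was not computed, as Epas1 had 0 counts in 5 libraries. Alternatives were other scalings, no filter, a minimum of 10 counts per library, DESeq2 1.42.0, limma 3.58.1 voom, the replicate number as a block, a loess correction for GC content and length (values for 99.2% of tested genes) with and without the block, and leaving out each library. The scripts were tested on simulated data.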

Additional observations from a re-analysis of the deposited data

How the results depend on the processing

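The direction of all 9 tested genes was kept in every alternative that gave a value. Egln3 was called in all 16 (log2 fold change -0.59 to -0.49) and Egln1 in 15 of 16. Ndrg1 was called in 12 of 16, and was lost with the GC content and length correction (edgeR adjusted p = 0.111), with that correction and the replicate block (0.282), and without doxycycline replicate 1 or 2. Adm was called in 11 of 14. It gave no value with at least 10 counts in every library, which leaves it out, and DESeq2 gave it no adjusted p. Vegfa was called with no filter (adjusted p = 0.0157) and with the correction and block (0.0489) but in none of the other 14. Hif1a, Arnt and Vhl were called in none of 16.

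Of all genes, 283 were called lower and 121 higher. These became 439 and 210 with no filter, 467 and 386 with the GC content and length correction, 459 and 356 with that correction and the block, and 358 and 185 with DESeq2. The cause was not tested. Without 1 library the counts ran from 116 to 487 lower and from 44 to 269 higher. Over the same fits the 10 HIF genes had 2 to 4 called lower, the further targets 7 to 12, the control genes 0 to 2, the ligand, receptor and paralog genes 0 to 3 and the glycolytic genes 4 to 14. The ratio of Egln3 to Egln1 differed by -0.33 to -0.23 on the log2 scale. The median of all genes moved between -0.007 and 0.009.

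Same-numbered libraries did not deviate together (r = -0.04, 0 and 0.02), so the numbers were not taken as pairs. With the replicate block 300 genes were called lower and 118 higher, and 4 of the HIF genes lower. Depth limits Adm and Epas1, which had at most 70 and 2 counts in a library.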

Other observations

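Enzymes that modify collagen form a group within the list of further HIF targets that was drawn up after the values were seen. P4ha1, a subunit of the collagen prolyl hydroxylase, fell from 89.7 ± 3.75 to 69.7 ± 4.01 CPM (SD, n = 3; log2 fold change -0.36, SE 0.0564, edgeR adjusted p = 0.000525). Plod2, a collagen lysyl hydroxylase, fell from 93.3 ± 3.6 to 73.4 ± 3.81 CPM (-0.35, SE 0.0548, edgeR adjusted p = 0.000636). In both genes every doxycycline library lay below every untreated library, and both were called whichever library was left out. The related Plod1 fell too (-0.33, edgeR adjusted p = 0.0182), but its call was lost when any 1 untreated library was left out. The other prolyl hydroxylase subunit P4ha2 had a log2 fold change of -0.31 (edgeR adjusted p = 0.167), and its groups overlapped. Loxl2, which crosslinks collagen, had -0.52 with an SE of 0.377 and was below 1 CPM in each library.

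Of the histone demethylases of the same list, 1 passed the test. Kdm3a had 83.6, 83.4 and 93.9 CPM in untreated and 71.7, 71.7 and 73.0 CPM in doxycycline libraries (log2 fold change -0.27, SE 0.056, edgeR adjusted p = 0.008), and its call was lost without untreated replicate 3 (largest adjusted p 0.121). Kdm4b had a log2 fold change of -0.21 (edgeR adjusted p = 0.208) and Kdm4c one of 0.07 (edgeR adjusted p = 0.721). Differences between these genes were not tested. The other called genes of the list were Mif, Mxi1 and Zfp395, with log2 fold changes of -0.26, -0.33 and -0.33. Mif was called whichever library was left out. The call of Mxi1 was lost without untreated replicate 3 and without doxycycline replicate 3 (largest adjusted p 0.148), and that of Zfp395 without either of these or untreated replicate 1 (largest adjusted p 0.0801). Mif has several near-identical copies in the mouse genome, so its count is uncertain.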
